A study of Homo sapiens with 6 samples.

Results

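The oncofetal and Wnt pathway genes of liver cancer were followed here through the peaks of tagged TAF2 that lay over them: AFP, GPC3, IGF2, CTNNB1, CCND1, LGR5, AXIN2, TBX3 and GLUL. These 9 genes were taken by name, out of 19987 protein-coding genes that could be compared. A peak was counted for a gene when it lay over the RefSeq span of the gene on GRCh38 or within 1000 bp of it. The samples were ChIP-seq libraries (chromatin immunoprecipitation and sequencing) of HepG2-TAF2-V5, a clone of the human hepatocellular carcinoma line HepG2 that carries TAF2 with a V5 peptide tag. They comprised 3 libraries from the V5 antibody and 3 control libraries from the same clone, which the labels call input in one field and IgG in another. Both groups had the same genotype, and no further treatment was stated. The values come from the V5 peak lists, so no control value stands beside any of them. Whether the lists were called against these controls is not given in the sources used here. Whether the replicates came from separate cultures is not stated.

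TAF2 is a subunit of TFIID, the complex that recognises core promoters and helps place RNA polymerase II at transcription starts. Oncofetal genes such as AFP and GPC3 are active in fetal liver, are largely shut down in adult hepatocytes and are often active again in liver cancer. AFP encodes alpha-fetoprotein, the main plasma protein of the fetus and a serum marker of liver cancer. In the Wnt pathway, a destruction complex that includes axin proteins keeps beta-catenin low until Wnt ligands bind their receptors. Beta-catenin, the product of CTNNB1, then enters the nucleus and works with TCF/LEF factors on target genes such as AXIN2 and LGR5. HepG2 carries a CTNNB1 allele whose product escapes degradation, so the pathway is active in this line without added ligand.

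Promoter sequences from RefSeq (GRCh38.p14) were matched for 3 of the 9 members. No other member had a matched sequence, so these 3 are shown. AFP had a peak over its start in replicate 1 alone, CTNNB1 had peaks inside the gene only, and GLUL had none. Each line gives the 250 bases before the annotated start, 5′ to 3′ on the gene's own strand, and capitals mark TATAAA, the TATA box word. The windows are chr4:73435971-73436220 on the plus strand for AFP, chr3:41199255-41199504 on the plus strand for CTNNB1, and chr1:182391791-182392040 on the minus strand for the outer start of GLUL.
AFP: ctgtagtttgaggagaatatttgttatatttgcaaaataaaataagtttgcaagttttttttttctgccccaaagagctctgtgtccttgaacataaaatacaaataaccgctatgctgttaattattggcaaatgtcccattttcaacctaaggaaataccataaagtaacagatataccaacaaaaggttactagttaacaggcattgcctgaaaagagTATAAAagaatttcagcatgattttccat
CTNNB1: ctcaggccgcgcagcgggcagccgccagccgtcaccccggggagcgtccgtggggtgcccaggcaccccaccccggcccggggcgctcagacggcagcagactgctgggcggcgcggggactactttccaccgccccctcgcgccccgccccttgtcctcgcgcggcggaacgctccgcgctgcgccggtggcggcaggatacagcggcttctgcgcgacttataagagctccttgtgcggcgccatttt
GLUL: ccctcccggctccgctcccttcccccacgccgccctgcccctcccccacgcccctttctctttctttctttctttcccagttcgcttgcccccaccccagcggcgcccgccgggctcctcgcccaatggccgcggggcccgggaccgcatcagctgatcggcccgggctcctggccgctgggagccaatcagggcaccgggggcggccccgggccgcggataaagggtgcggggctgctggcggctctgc
The AFP window held TATAAA at positions -29 to -24, counted back from the start. The word was absent on both strands from the windows of CTNNB1 and of both annotated starts of GLUL, each searched from 250 bases before to 50 after the start. It occurred in 11.5% of all 35116 promoter windows of that length. Only the exact word was searched, and near matches were not counted. The CTNNB1 line reads tataag at the same positions, -29 to -24, which differs from TATAAA in its last base alone. The GLUL line reads gataaa a few bases further from the start, which differs in its first base alone. The TCF/LEF words searched were CTTTGAA (in 4.43% of all windows), CTTTGAT (2.62%), CTTTGTT (5.20%) and CTTTGTA (2.77%), on both strands. None of them was in a member's window, and 13.8% of all windows held at least 1. A word match is a description of the letters and does not show a bound site, and an absent word says nothing about the factor.

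Of the 9 members, 7 had a peak in at least 1 library, against 8.67% of all protein-coding genes. All 7 had one in at least 2 libraries, against 3.76%, and 5 in 3 libraries, against 1.90%. In the same 7 genes peaks of at least 2 libraries overlapped, against 3.26%. Overlap here means at least 1 shared base. Peaks of all 3 libraries overlapped at AFP, GPC3, LGR5 and AXIN2, against 1.53% of all genes. At CTNNB1 and CCND1 the overlap was between 2 libraries and the remaining library had no peak. At TBX3 each library had a peak, but those of replicates 2 and 3 alone overlapped. IGF2 and GLUL had no peak in any library. Longer genes carried peaks more often: overlapping peaks of at least 2 libraries were found in 2.82% of genes of 10 to 50 kb, the class of 7 members, and in 5.29% of genes over 50 kb, the class of GPC3 and LGR5. The members had been chosen with earlier results of these data in view, so these counts describe the genes and carry no test. The count with overlapping peaks was 4 without replicate 2, against 1.88% of all genes. It was 3 (GPC3, LGR5 and AXIN2) among peaks with a deposited -log10 q of at least 3, against 2.58%.

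The members held 15 of the 1599 peaks of replicate 1, 23 of the 2557 of replicate 2 and 16 of the 1887 of replicate 3, 54 in all. The fold of a peak is a linear ratio deposited by the authors, whose denominator is not given in the sources used here. It was used to rank peaks within a list and, in a stricter setting, as a cut-off of at least 5 in every list. Member folds ran from 3.29 to 7.88 in replicate 1, from 3.02 to 8.85 in replicate 2 and from 3.51 to 9.54 in replicate 3, while the medians of the whole lists were 5.01, 5.25 and 5.03. The median member peak stood at the 49.8th, 55.5th and 61.8th percentile of its list by fold in replicates 1, 2 and 3. GPC3 alone among the members had its strongest peak above the 90th percentile by fold in each library. By -log10 q the same GPC3 peaks stood at the 82.3rd, 86.7th and 91.0th percentile in replicates 1, 2 and 3. Read totals are not part of the lists, and the depth behind a peak is unknown.

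**Figure D1:**
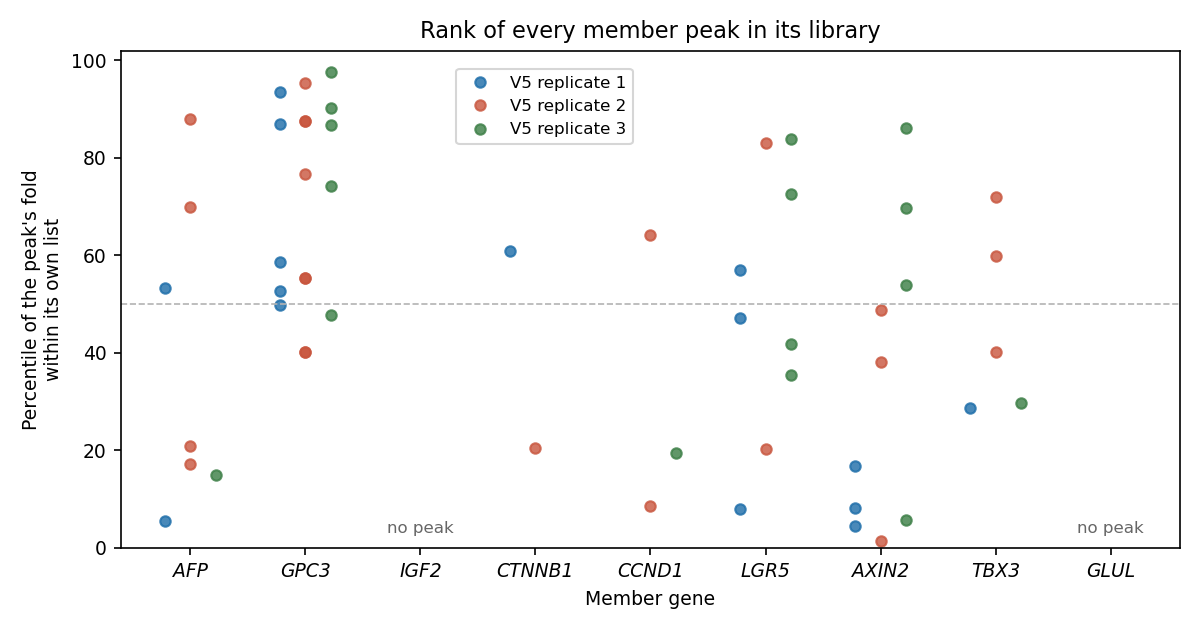
Percentile of every member peak by fold within its own list (vertical axis, 0 to 100), by gene and V5 replicate, 1 point per peak, with the dashed line at the 50th percentile. GPC3 reaches the 93.5th to 97.6th percentile in each library, whereas the strongest peaks of AFP and AXIN2 stand far apart between libraries and IGF2 and GLUL have none.

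Of the oncofetal members AFP, GPC3 and IGF2, GPC3 had the most peaks and the highest ranks. GPC3 encodes glypican-3, a heparan sulphate proteoglycan of the cell surface that is abundant in many liver cancers and scarce in adult liver. The gene spans 449850 bp (chromosome X, 133535745 to 133985594). All 18 of its peaks, 5 in replicate 1, 8 in replicate 2 and 5 in replicate 3, lay in the 15.7 kb next to the upper annotated end or over that end itself, a stretch equal to 3.49% of the gene. The gene is known to be read towards lower coordinates, which makes the upper end its start.

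The strongest peak over GPC3 had a fold of 7.88 in replicate 1, 8.85 in replicate 2 and 9.54 in replicate 3. Its mean percentile by fold was 95.5 ± 2.03 (SD, n = 3), a narrow spread compared with the other members. These strongest peaks belonged to 1 merged region, chromosome X, 133977995 to 133981639, which held 6 peaks of the 3 libraries. Those of replicates 2 and 3 did not overlap each other, and that of replicate 1 overlapped both. The summits of the strongest peaks, the positions of highest signal, were not at 1 place. They lay 6.27, 6.96 and 4.32 kb inside the upper end in replicates 1, 2 and 3. The libraries thus marked the same stretch but not the same point in it.

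A narrower region nearer the start, chromosome X, 133982747 to 133983775, also held peaks of all 3 libraries. Folds there were 6.68 in replicate 1, 7.38 and 5.41 in replicate 2 and 7.27 in replicate 3, with summits 2.11 to 2.74 kb inside the end. Only replicate 1 had a peak over the annotated end itself, with a fold of 5.10 and a summit 104 bp outside the gene. Replicate 1 had a further peak 1633 bp beyond that end (fold 3.91), just outside the window of the rule. The peaks covered 4.43, 5.63 and 3.63 kb in replicates 1, 2 and 3. At least 5 peaks in each library were found in 20 genes, GPC3 included, 0.100% of all protein-coding genes. The noncoding RNA gene LOC124905220 was annotated over the regions with summits 8.99 to 9.26 kb and 15.6 kb inside the end, which makes the gene behind those peaks ambiguous.

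**Figure D2:**
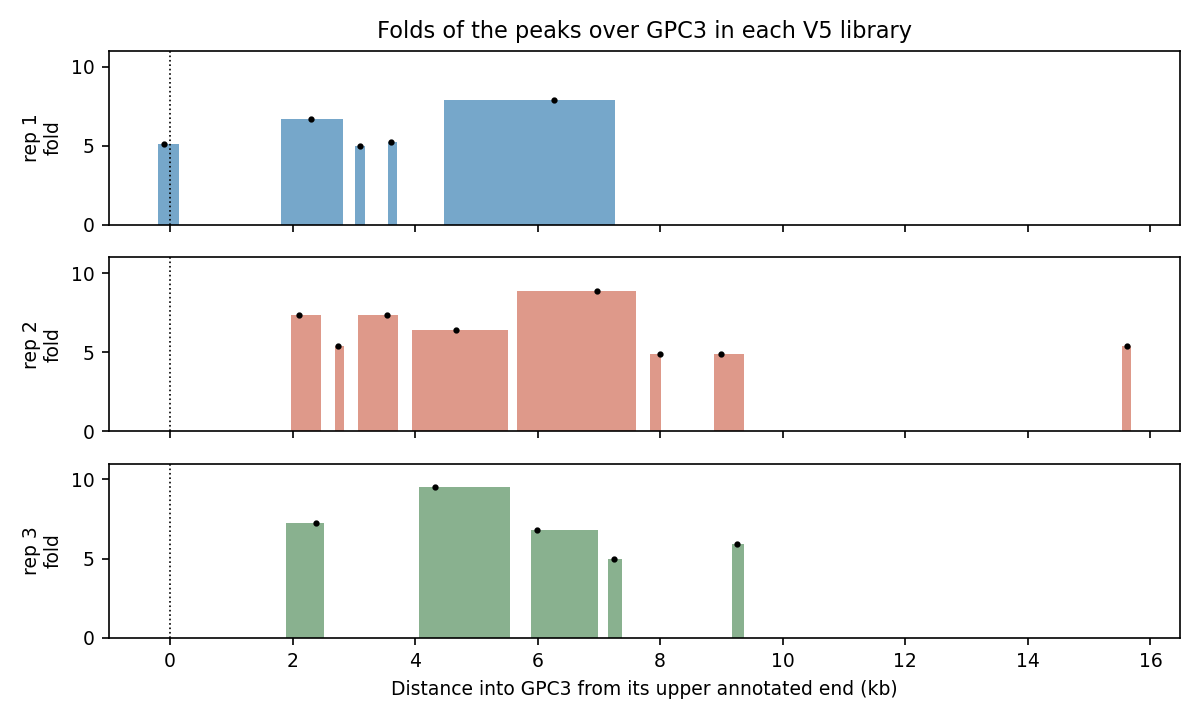
Folds of the peaks over GPC3 (vertical axes, linear ratio from 0) against distance into the gene from its upper annotated end (kb), 1 panel per V5 replicate. Bars span each peak, dots mark summits and the dotted line is the annotated end. Each library has its widest peaks inside the gene and not over the annotated end, and replicate 1 alone has a peak at the end.

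AFP (chromosome 4, 73436221 to 73456174) had 2 peaks in replicate 1, 4 in replicate 2 and 1 in replicate 3. The position shared by all 3 libraries lay 3.65, 3.77 and 3.67 kb downstream of the start in replicates 1, 2 and 3 (chromosome 4, 73439731 to 73440145), with summits within 125 bp of each other. Folds there were 5.11, 4.34 and 4.005, at the 53.3rd, 21.0th and 14.9th percentile of the lists. The peaks at the start did not coincide.

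Replicate 1 had a peak from 52 bases before the AFP start to 159 bases after it, which covers the TATAAA word shown in the sequence. Its summit was its last base, 159 bases after the start and away from that word. Its fold was 3.45, near the bottom of its list (5.53rd percentile). Its -log10 q was 1.32, where the lowest of the list was 1.31. Replicate 2 had a peak 191 to 377 bases after the start with a fold of 4.22, and replicate 3 had none there. The peaks of replicates 1 and 2 did not overlap and count as different positions. The strongest AFP peak was in replicate 2 alone, 2.93 kb inside the gene, with a fold of 7.44 at the 88.0th percentile. Below the gene, 3.25 kb before the start in replicate 1 and 3.31 kb in replicate 2, overlapping peaks with folds of 5.62 and 5.81 lay outside the window. The neighbouring genes ALB and AFM, which encode albumin and afamin of the same family, had no peak in any library.

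IGF2 (chromosome 11, 2129117 to 2149566) encodes insulin-like growth factor 2, an imprinted fetal growth factor. It had no peak, nor had H19, INS or TH nearby. The nearest peaks lay 61.5 to 61.6 kb above its span, and there all 3 libraries marked the same position, with folds of 5.17, 6.41 and 6.17 in replicates 1, 2 and 3. That position was covered by no annotated gene, and TH, at 39.3 kb, was the closest protein-coding gene.

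CTNNB1 (chromosome 3, 41199505 to 41240443) had 1 peak in replicate 1 and 1 in replicate 2, with folds of 5.33 and 4.33, and none in replicate 3. They overlapped by 93 bp, and their summits lay 2263 and 2388 bp downstream of the start, well outside the promoter window shown above. They ranked at the 61.0th and 20.5th percentile. The annotation used gives no exons, so whether a peak inside a gene is exonic or intronic is not stated here.

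**Figure D3:**
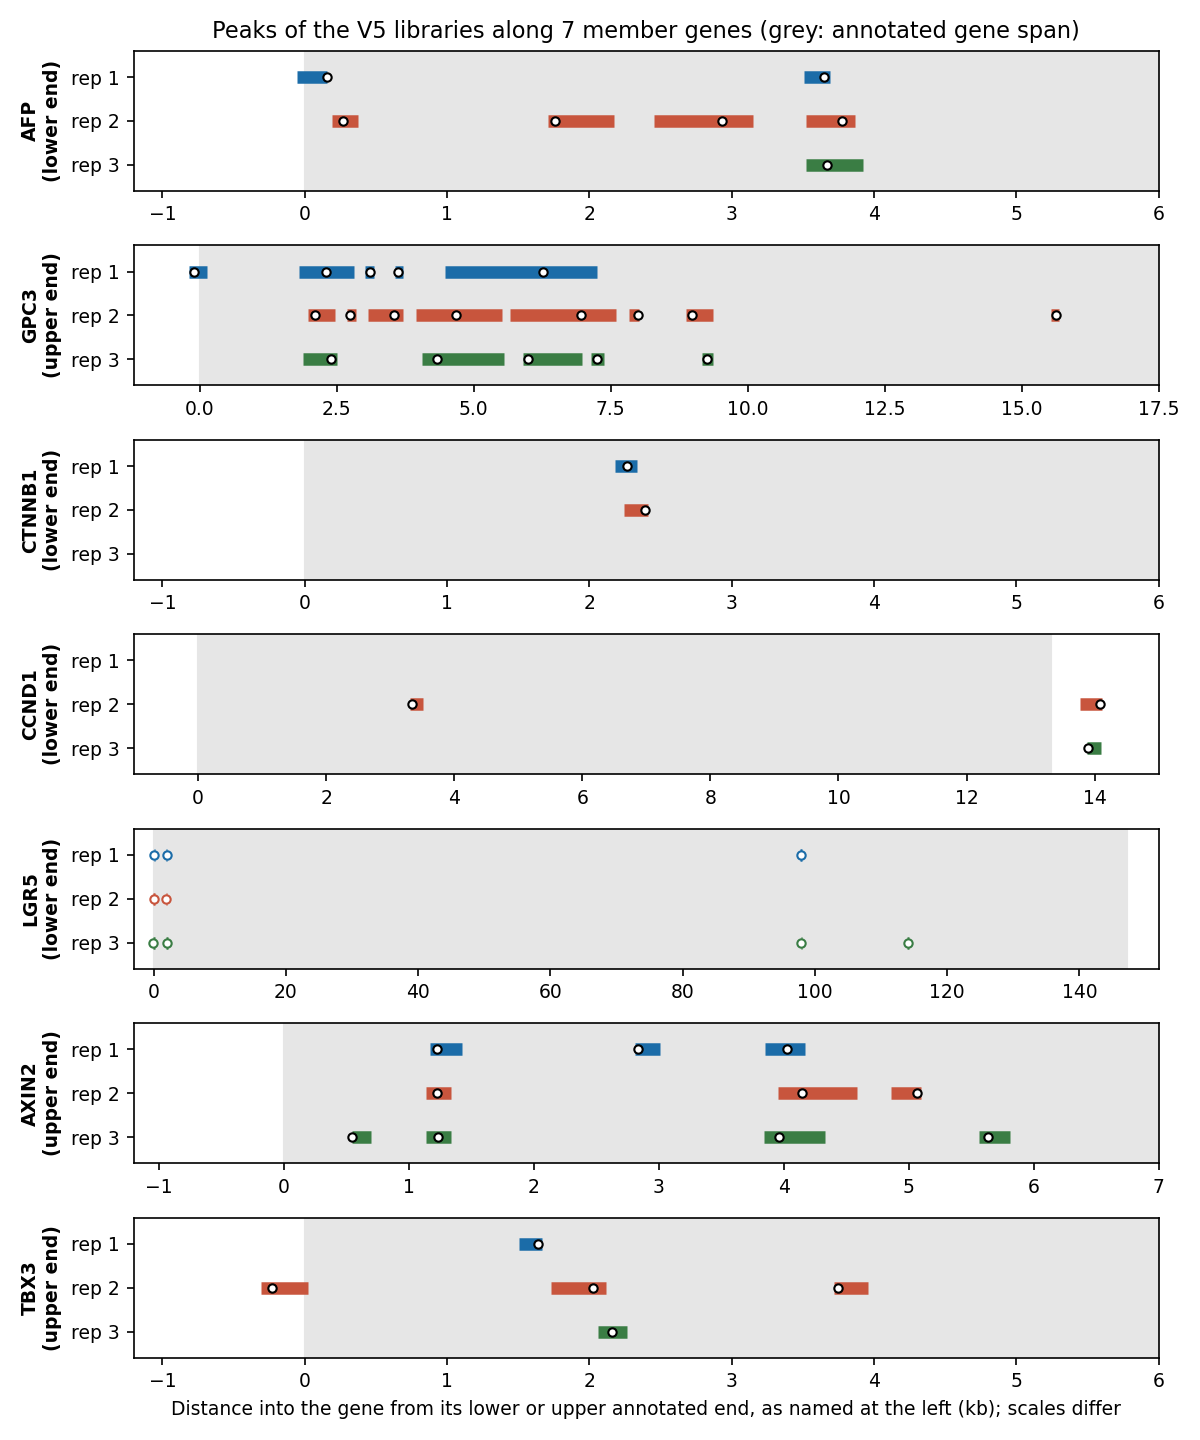
Peaks (bars) and summits (circles) of each V5 replicate along the 7 members with peaks, as distance in kb into the gene from the annotated end named beside each panel, with the annotated span in grey. At AFP the bars of all 3 libraries line up at 3.65 to 3.77 kb and not at the end, at LGR5 and AXIN2 they line up at 2 places each, and at CCND1 the shared peak is beyond the far end. On the LGR5 scale the circles hide the bars.

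Among the Wnt targets, LGR5 and AXIN2 each had 2 positions marked by all 3 libraries. LGR5 encodes a receptor for R-spondins, which strengthen Wnt signalling, and marks stem cells of several epithelia (chromosome 12, 71439129 to 71586310). It was the only member with peaks of all 3 libraries over an annotated end. The end, 71439129, is the start of this gene as generally known, and the summits were 42 bp inside it in replicate 1, 60 bp inside it in replicate 2 and 86 bp outside it in replicate 3. Folds were 5.23, 6.89 and 4.63, at the 56.9th, 83.0th and 35.4th percentile.

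A further position shared by all 3 libraries lay 1.86 to 1.95 kb inside LGR5, where folds were 3.62 in replicate 1, 4.31 in replicate 2 and 4.85 in replicate 3. Both positions also lay over LOC124902962, a noncoding RNA gene that spans the start of LGR5. Deep in the gene, 97.9 kb from this end, replicates 1 and 3 had peaks with folds of 4.89 and 5.85 and summits 2 bp apart, and replicate 2 had none. Replicate 3 alone had a peak at 114 kb, with a fold of 6.54. Both of these deep positions fell over another noncoding gene, LOC105369833.

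AXIN2 encodes an axin of the destruction complex and is itself a Wnt target that feeds back on the pathway (chromosome 17, 65528563 to 65561648). It had 3 peaks in replicate 1, 3 in replicate 2 and 4 in replicate 3, all within 6 kb of the upper end, which is known as its start. At 1.22 to 1.23 kb inside this end all 3 libraries had a peak, with summits within 8 bp (chromosome 17, 65560222 to 65560511). The folds were 3.64 in replicate 1, 4.86 in replicate 2 and 6.71 in replicate 3, at the 8.19th, 38.2nd and 86.2nd percentile. The position was the same, but its rank ran from near the bottom of a list to near the top.

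The other shared position of AXIN2 (chromosome 17, 65557064 to 65557809) had summits 3.96 to 4.14 kb inside the end and folds of 3.29, 5.19 and 5.70 in replicates 1, 2 and 3. Replicate 1 again had the lowest fold and rank, at the 4.38th percentile. No library had a peak over the end itself, and the nearest was a peak of replicate 3 alone, 542 bp inside it with a fold of 3.51.

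TBX3 encodes a T-box repressor and is a Wnt target in liver tumours (chromosome 12, 114670255 to 114684175). It had 1, 3 and 1 peaks in replicates 1, 2 and 3. The peaks of replicates 2 and 3 overlapped by 56 bp, 2.03 and 2.16 kb inside the upper end, with folds of 6.14 and 4.50. The peak of replicate 1 (fold 4.38, 1.64 kb inside) lay just beside them without touching. Replicate 2 alone had a peak over the end, with a fold of 5.58. The antisense RNA gene TBX3-AS1 was annotated over these positions, and ChIP peaks carry no strand.

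CCND1 encodes cyclin D1, which drives entry into S phase (chromosome 11, 69641156 to 69654474). Replicates 2 and 3 shared a position beyond the upper end, where their peaks began 456 and 567 bp outside the gene, with folds of 5.76 and 4.17. The gene is known to be read towards higher coordinates, so this was past the 3′ end and not at the start. Replicate 2 had another peak 3.34 kb inside the gene near the bottom of its list (fold 3.91, 8.53rd percentile), and replicate 1 had no CCND1 peak. No library had a peak at the start of CCND1. With no window around the span, CCND1 was no longer counted among the genes with 2 libraries.

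GLUL encodes glutamine synthetase, which hepatocytes around the central vein make under Wnt control (chromosome 1, 182378098 to 182391790). It had no peak, and the nearest lay 1601, 12633 and 1289 kb away in replicates 1, 2 and 3. The absence of a listed peak says that none passed the authors' threshold, not that TAF2 was absent.

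Across the 7 genes with peaks there were 29 separate regions. Peaks of 3 libraries met in 7 of them and peaks of 2 libraries in 6, while 16 came from 1 library. The 13 shared regions lay mostly inside the genes near 1 end. Their median distance to the nearer annotated end was 2.34 kb, against 4.57 kb for the 960 shared regions of other protein-coding genes. Within 5000 bp of an end lay 10 of 13, against 50.7% in other genes, and within 250 bp lay 1 of 13, that of LGR5, against 13.9%. The difference was not tested, since regions of 1 gene are not independent of each other.

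Other genes of the pathway were counted by lists, members left out. All lists, like the members, were chosen with earlier results of these data known, so their counts are a description and carry no test. Of 30 further Wnt target genes, 7 had overlapping peaks in at least 2 libraries, against 3.26% of all genes. They were ZNRF3 and RNF43, ubiquitin ligases that clear Frizzled receptors from the cell surface, NKD1, an inhibitor that binds Dishevelled, SLC13A3, a dicarboxylate transporter, and SP5, RHBG and BMP4. SP5, a Wnt-induced transcription factor, RHBG, an ammonium transporter of hepatocytes around the central vein, and BMP4 were named after their values were seen. ZNRF3 had 17 peaks and RNF43 had 16. At ZNRF3 (chromosome 22, 28883304 to 28883706) all 3 libraries had a peak over the lower annotated end, with folds between 4.88 and 9.14. At NKD1 all 3 libraries had a peak outside the lower end, with folds of 6.004, 6.54 and 6.73 in replicates 1, 2 and 3. The merged region was chromosome 16, 50547492 to 50547806, and the lower end of the gene is 50548396. A peak of 1 library nearer that end, 50548204 to 50548367, had a fold of 2.67.

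Ligand and machinery genes were read against the share of all protein-coding genes with a peak in any library, 8.67%. None of 19 Wnt ligand genes, 12 secreted inhibitor genes or 12 further genes of the destruction complex had a peak in any library. With so low a share over all genes, counts of 0 in lists of this size do not set these genes apart. Of 20 receptor, R-spondin and ligase genes, 2 had overlapping peaks in at least 2 libraries, against 3.26% of all genes, again ZNRF3 and RNF43, and FZD5 had a weak peak in replicate 3 alone (fold 2.77). Of 15 genes for TCF/LEF factors and beta-catenin co-factors, whose median length was 84.7 kb, 2 had overlapping peaks, against 5.29% of all genes over 50 kb: BCL9L, a co-activator, in 3 libraries, and TLE1, a co-repressor, in 2. TCF7L2, a main partner of beta-catenin, had peaks in 2 libraries that did not overlap, and BCL9 had a peak in replicate 3 only.

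Of 21 further oncofetal and imprinted genes, 4 had overlapping peaks in at least 2 libraries, against 3.26% of all genes. GOLM1, a Golgi protein used as a serum marker of liver cancer, had 1 peak per library in the same place, with folds of 11.8, 19.2 and 7.74 in replicates 1, 2 and 3. IGF2BP1, an RNA-binding protein of fetal tissues, had 19 peaks near the lower end of its span, the strongest at the 66.2nd, 73.4th and 64.0th percentile in replicates 1, 2 and 3. HMGA2 had overlapping peaks in replicates 2 and 3, as had IGF2BP3, which was named after its values were seen. IGF2BP2 had peaks in replicates 1 and 3 at different positions. Among all listed genes, the percentiles of the strongest peaks of ZNRF3 (85.3, 95.1 and 96.9), GOLM1 (99.3, 99.8 and 93.3) and RNF43 (90.9, 91.9 and 84.5) came nearest to those of GPC3 over the 3 libraries, at Euclidean distances of 8.29, 8.47 and 13.8 percentile points.

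**Figure D4:**
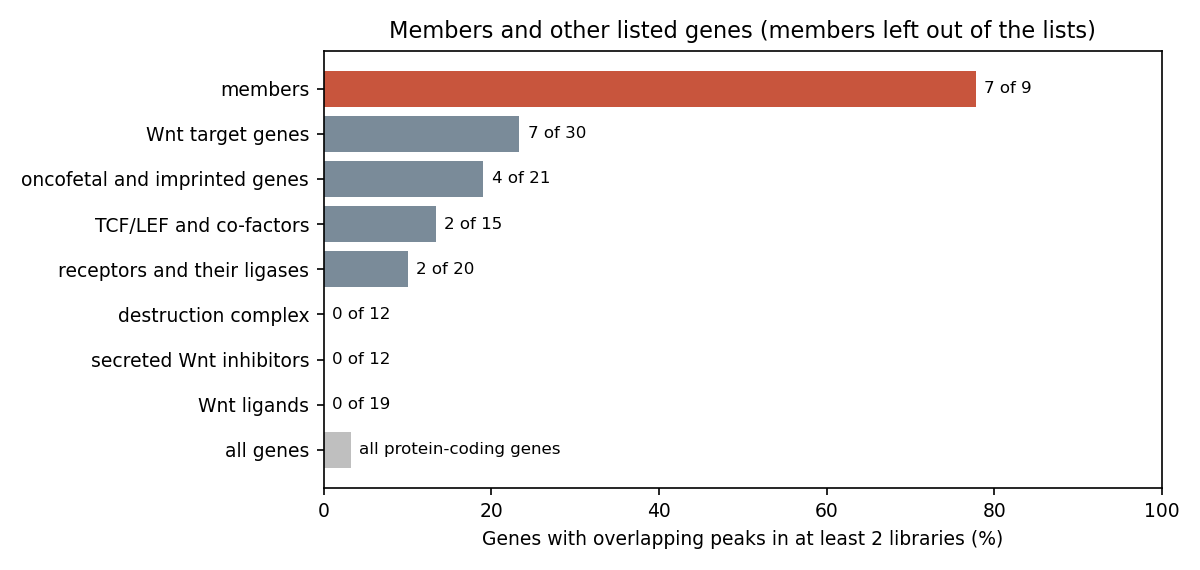
Share of genes with overlapping peaks in at least 2 V5 libraries (horizontal axis, percent), for the 9 members, for each list without the members, and for all protein-coding genes. The members stand at 7 of 9, further Wnt targets at 7 of 30 and further oncofetal genes at 4 of 21, while Wnt ligands, secreted inhibitors and the destruction complex are at 0 and all protein-coding genes at 3.26%. Members and lists were chosen with earlier results of these data known.

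As a check of the labelled tissue, 6 of 10 hepatocyte marker genes had overlapping peaks in at least 2 libraries (APOA1, APOA2, APOB, SERPINA1, HNF4A and FOXA3), against 3.26% of all genes, and ALB, TTR and FGB had none. APOA1, SERPINA1, ALB, TTR and FGB were named after their values were seen. Of 8 markers of blood, endothelial, stromal and biliary cells, PECAM1 alone had such peaks, and 1 gene in a list of this size is not far from the share of all genes. Peaks are not expression, so this describes where tagged TAF2 was found and does not measure cell identity.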

How the data were processed

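The data were peak lists of 3 V5 ChIP-seq libraries. The build was GRCh38, per the submitters' processing notes. Neither the aligner nor the caller, its cut-off or its control is given in the sources used here. Per peak, the authors' deposited list gives a fold (linear ratio), a -log10 p, a -log10 q and a summit. A deposited score, 10 times the truncated -log10 q, was left aside. Fold and -log10 q are the authors' values and were ranked only within a list. The stricter settings applied the same cut-off to every list. The lists were called per library.

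Peaks were joined to RefSeq gene spans (GRCh38.p14) with a window of 1000 bp, and peaks of different libraries sharing at least 1 bp were merged. Genes were named by a rule: all members, and up to 4 genes of each other list by number of libraries and mean percentile. The report says which listed genes were named outside it, and ALB, AFM, H19, INS and TH were named as neighbours of members. The members and lists were chosen with earlier results of these data known, so no test was run. The code was tested on simulated peaks. Alternatives covered other windows, stricter peaks, other overlap rules and each replicate left out. Python 3.11.15, numpy 2.4.6, pandas 2.3.3 and matplotlib 3.10.9 were used.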

Additional observations from a re-analysis of the deposited data

How the results depend on the processing

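The count of members with a peak in at least 2 libraries, 7 of 9, and the count with overlapping peaks, also 7, depended on the strength asked of a peak. With -log10 q of at least 3 they were 4 and 3, with -log10 q of at least 5 they were 2 and 2 (GPC3 and LGR5), with a fold of at least 5 they were 4 and 3, and with the strongest 1000 peaks of each list they were 3 and 2. The shares of all protein-coding genes fell too, to 2.90 and 2.58%, 1.91 and 1.75%, 2.04 and 1.77%, and 2.04 and 1.88% under these settings. Fewer peaks enter each of them. With peaks of all 3 libraries required to overlap, 4 members were left, against 1.53% of all genes. Leaving out 1 replicate gave 5 to 6 members with a peak in both remaining libraries, against 2.26 to 2.81% of all genes. With overlapping peaks it gave 4 to 6, against 1.88 to 2.43%. The lowest was 4 without replicate 2, where CTNNB1, CCND1 and TBX3 were lost. CTNNB1 was also lost without replicate 1, and without replicate 3 CCND1 was lost from both counts and TBX3 from that of overlapping peaks. Windows of 0 or 5000 bp, assignment by summit, summits within 200 bp and an overlap of at least 50% of the shorter peak gave 6 or 7. The shares of all genes under these settings were 2.78 to 4.38%. Ranked by -log10 q, the mean percentile of GPC3 was 86.7 instead of 95.5. No paired analysis was possible because the control samples have no peak list here and no test was run. The lists carry no depth, so whether a missing peak reflects fewer reads cannot be told apart from a weaker signal.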
